A study of Mus musculus with 31 samples.

Results

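The CaM kinase II family was followed in kidney RNA from 31 mice through 5 genes of the 23509 in the count files. Camk2a, Camk2b, Camk2d and Camk2g encode the kinase subunits, and Camk2n1 encodes a small protein that inhibits the kinase. All 5 genes were found by symbol, and all 5 were among the 15185 genes with enough counts to be tested. They were chosen by the measured difference between PBS-treated cystic mice and wild-type mice, in which Camk2b had one of the biggest rises of the series. Every difference of a member from wild type is therefore given below as a description, with no test, and the members were tested only among the cystic mice.

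The cystic groups were Pcy/CD1 mice, which develop slowly progressing cystic kidneys. Of these, 12 mice received PBS and 14 received RGLS4326 by subcutaneous injection at 25 mg per kg once monthly, both from 5 weeks of age for 25 weeks. RGLS4326 is a short oligonucleotide that pairs with the seed of miR-17 and so blocks this microRNA and its relatives. A further 5 mice were wild-type CD1 males that received nothing. All kidneys were taken at 30 weeks of age. The PBS schedule is weekly in the sample labels and in the study's account of this experiment, which describes the Pcy/CD1 mice as male, and monthly in the protocol text of the labels. Where PBS was given weekly, the schedule and the drug cannot be told apart between the PBS and treated groups. The Pcy genotype, the origin of the colony and the injections all differ between the PBS and wild-type groups and cannot be told apart. The RNA came from whole kidney, so that fewer cells of a type and less RNA per cell cannot be told apart either.

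CaM kinase II is a large assembly of subunits that is switched on when calcium-loaded calmodulin binds it. The subunits then phosphorylate each other, and the enzyme can stay active after calcium has fallen. The alpha and beta subunits (Camk2a and Camk2b) are best known from brain, where the beta subunit also binds actin filaments, whereas the gamma and delta subunits (Camk2g and Camk2d) are made in most tissues. Camk2n1 protein binds the active kinase and blocks its catalytic site.

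The 5 genes lie on 5 chromosomes of the GRCm38 build. In the GENCODE vM21 annotation, Camk2b occupies chromosome 11 from 5969644 to 6066362 on the minus strand and Camk2n1 chromosome 4 from 138454314 to 138460123 on the plus strand. Camk2d lies on chromosome 3 from 126596302 to 126846326 and Camk2g on chromosome 14 from 20734875 to 20794088. The genes annotated inside Camk2a and Camk2d are not counted in these files, and the other 3 members overlap no annotated gene.

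Because the drug is directed at the miR-17 seed, the 3′UTRs of the members were searched for sequence that pairs with it. The mature microRNAs printed here, from RefSeq (GRCm38.p6), share the seed that the drug is aimed at, and their seed, bases 2 to 8, is in capitals.
miR-17-5p: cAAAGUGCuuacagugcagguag
miR-20a-5p: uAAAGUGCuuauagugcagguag
miR-106b-5p: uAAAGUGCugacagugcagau
miR-93-5p: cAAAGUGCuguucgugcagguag
Altogether 7 mature mouse microRNAs of the RefSeq table carry this seed. A 7-base match to seed bases 2 to 8 reads GCACTTT, and a match to bases 2 to 7 followed by an A reads CACTTTA, both on the transcript strand. Where a GCACTTT is followed by an A, the motifs overlap in an 8-base match. No member had such an 8-base match in its longest GENCODE 3′UTR.

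The 7-base matches in 3′UTRs of the members are printed because they are the places where the drug's microRNA could pair. Each is a 30-base stretch of the transcript strand, with the match in capitals.
Camk2n1, chr4:138456885-138456891: ggagggagaaaGCACTTTgaaatttattaa
Camk2n1, chr4:138457724-138457730: caatattgtgtCACTTTAtccattctcttt
Camk2b, chr11:5970294-5970300: ccaacgctgacCACTTTAaattcatgtcat
Camk2d, chr3:126844390-126844396: tgattgctaatCACTTTAgatatattgttg
Camk2n1 was the member with a GCACTTT match, which starts at base 97 of its 3335-base 3′UTR. Camk2a and Camk2g held no 7-base match of either kind. Such matches are common. Among 3922 genes whose longest 3′UTR has 2000 to 4000 bases, 22.9% hold GCACTTT and 23.4% hold CACTTTA. A match is a stretch of sequence and not evidence that the microRNA acts there.

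Each mouse gave 14892524 to 27459962 counts on genes. Levels are given as CPM, counts scaled to a common library size after TMM, a factor that sets the bulk of genes equal between mice. The tubule gene list (9 genes, among them Lrp2, Slc34a1 and Umod) was present in every library, summing to between 9291 and 21240 CPM. One library did not resemble its group. RGLS4326-treated mouse 9 lay inside the wild-type range for 56.4% of the 6442 genes that separated PBS from wild-type mice by an adjusted p under 0.05 and a log2 fold change over 0.5 in either direction (42.4% of genes tested), against 5.22% to 21.3% in the 13 other treated mice. Its Lcn2 level, the kidney injury marker also called Ngal, was 2.76 CPM, against 126 to 607 CPM in the other treated mice and 0.944 to 11.2 CPM in wild-type mice. Gm8615, a predicted gene chosen after its values were seen, was at 89.7 CPM in mouse 9 and at 84.6 to 98.6 CPM in wild-type mice, against 0.149 to 0.488 CPM in PBS mice and 0.0496 to 0.494 CPM in the other treated mice. Whether the library, the genotype or the label of mouse 9 was exchanged was not tested, so its values may not be those of a treated Pcy/CD1 mouse. Results that include this mouse are therefore given with and without it.

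Camk2b, the beta subunit, was nearly silent in wild-type kidney and stood far above that level in every cystic kidney but that of treated mouse 9. The 5 wild-type mice had 0.0592, 0.0602, 0.118, 0.121 and 0.178 CPM, which rest on 1 to 3 counts per mouse and 9 counts in all. The 12 PBS mice ranged from 7.48 to 12.1 CPM with a median of 9.67 CPM, from 145 to 285 counts per mouse. All 12 therefore lay above all 5 wild-type mice, as the choice of the gene would have it. Over all counts the ratio of PBS to wild type was 89.5, with an exact 95% counting interval of 47.1 to 196. That interval covers counting error only.

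Treated mice split in the same way. Leaving mouse 9 aside, the other 13 treated mice ranged from 7.30 to 10.97 CPM with a median of 8.59 CPM, inside or just below the PBS range. Mouse 9 had 0.204 CPM from 4 counts. Its ratio to wild type was 1.90, with a counting interval of 0.429 to 6.82, whereas the other treated mice exceeded it by a ratio of 43.4 (interval 16.9 to 159). Mouse 9 thus stood with the wild-type mice in Camk2b as it did in Lcn2.

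**Figure D1:**
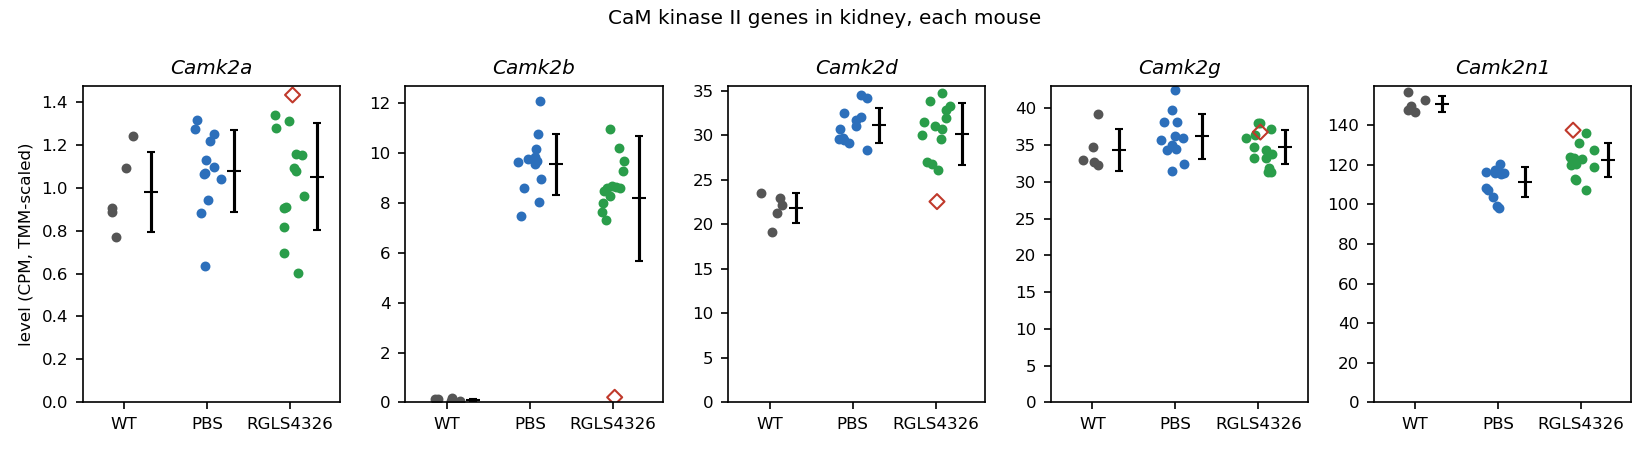
Level of each CaM kinase II gene in each mouse, in TMM-scaled CPM on a linear axis from 0. Points are mice (5 WT, 12 PBS, 14 RGLS4326), black marks the mean with its SD over all mice of the group, and the red diamond is RGLS4326-treated mouse 9. Camk2b is near 0 in WT mice and in mouse 9 and between 7.30 and 12.1 CPM in all other mice.

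Camk2n1, the inhibitor, ran the other way. The wild-type mice had 146.8, 147.4, 149.6, 152.5 and 156.7 CPM. The 12 PBS mice had 98.2 to 120.3 CPM with a median of 115.4 CPM, so that every PBS mouse lay below every wild-type mouse. The 14 treated mice had 107.4 to 137.4 CPM with a median of 122.4 CPM, again all below wild type, and mouse 9 was the highest of them.

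Camk2d, the delta subunit, was higher in PBS mice, at 28.3 to 34.5 CPM with a median of 30.9 CPM, than in the 5 wild-type mice, which ranged from 19.2 to 23.6 CPM. The groups did not overlap. Treated mice had 22.5 to 34.7 CPM, and the lowest of them was mouse 9. The other 13 treated mice, from 26.1 CPM upward, lay above wild type.

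Camk2g, the gamma subunit, and Camk2a, the alpha subunit, overlapped across all 3 groups. Camk2g had 32.3 to 39.2 CPM in wild-type, 31.5 to 42.5 CPM in PBS and 31.3 to 37.9 CPM in treated mice. Camk2a was low everywhere, with 0.772 to 1.24 CPM in wild-type, 0.635 to 1.31 CPM in PBS and 0.6003 to 1.43 CPM in treated mice, and rested on 12 to 33 counts per mouse.

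On the log2 scale of the edgeR model, PBS minus wild type came to 6.40 for Camk2b (SE 0.54), 0.51 for Camk2d (SE 0.07), 0.14 for Camk2a (SE 0.18) and 0.07 for Camk2g (SE 0.06), with Camk2n1 at -0.44 (SE 0.05). RGLS4326 minus wild type, which uses the same 5 wild-type mice, gave 6.18 for Camk2b, 0.47 for Camk2d, 0.10 for Camk2a, 0.02 for Camk2g and -0.30 for Camk2n1. These differences chose the family or share its wild-type mice, and nothing is read from them. As background, 42.2% of the 15185 genes tested did not overlap between PBS and wild-type mice, 20.3% with PBS higher and 21.9% with PBS lower. Between all 14 treated mice and wild type, 14.8% of genes did not overlap, 5.04% with treated mice higher and 9.75% with treated mice lower, and 33.4% did not without mouse 9.

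The scaling carries part of these values. Without TMM factors, on total counts alone, the median of all genes moved by 0.38 between PBS and wild-type mice and by -0.12 between treated and PBS mice. On that scale PBS minus wild type was 0.44 for Camk2g, 0.51 for Camk2a and -0.07 for Camk2n1. Measured from the median of all genes, the Camk2n1 difference was -0.45 on either scale, that of Camk2d 0.50 and that of Camk2b 6.39 with TMM and 6.38 without.

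Levels of different genes were set side by side per kilobase of exon. In wild-type kidney Camk2n1 came first at 33.9 ± 0.92 CPM per kilobase (mean ± SD, n = 5), followed by Camk2g at 5.37 ± 0.44, Camk2d at 0.971 ± 0.076, Camk2a at 0.131 ± 0.025 and Camk2b at 0.0118 ± 0.0054. No neighbours in this order overlapped. In PBS mice (n = 12) Camk2n1 stood at 25.0 ± 1.70 CPM per kilobase, Camk2g at 5.65 ± 0.48, Camk2d at 1.38 ± 0.088, Camk2b at 1.05 ± 0.13 and Camk2a at 0.144 ± 0.026. Camk2b had thus passed Camk2a, and its range, 0.820 to 1.32, overlapped that of Camk2d, 1.26 to 1.53. The exons of all Camk2d transcripts cover 22493 bases, and the coding length is 1599 bases. When the same counts, from all exons, were divided by coding length instead, each group kept its own order. In PBS mice Camk2d, at 17.7 to 21.6 CPM per kilobase, then no longer overlapped Camk2b, at 3.74 to 6.05, and did overlap Camk2g, at 18.6 to 25.0.

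As a share of the summed kinase level, Camk2b supplied 0.184% ± 0.092 in wild-type mice and 12.8% ± 1.9 in PBS mice. The share of Camk2g stood at 82.8% ± 1.6 in wild-type and 68.6% ± 2.3 in PBS mice, and that of Camk2d at 15.02% ± 1.43 and 16.8% ± 1.0. These shares depend on the length used. Per coding length Camk2g supplied 58.5% ± 2.8 in wild-type and 46.05% ± 2.25 in PBS mice, Camk2d 39.4% ± 2.7 and 42.01% ± 1.82, and Camk2b 0.157% ± 0.081 and 10.4% ± 1.5. The sum itself was 6.48 ± 0.45 CPM per kilobase of exon in wild-type mice and 8.22 ± 0.49 in PBS mice.

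**Figure D2:**
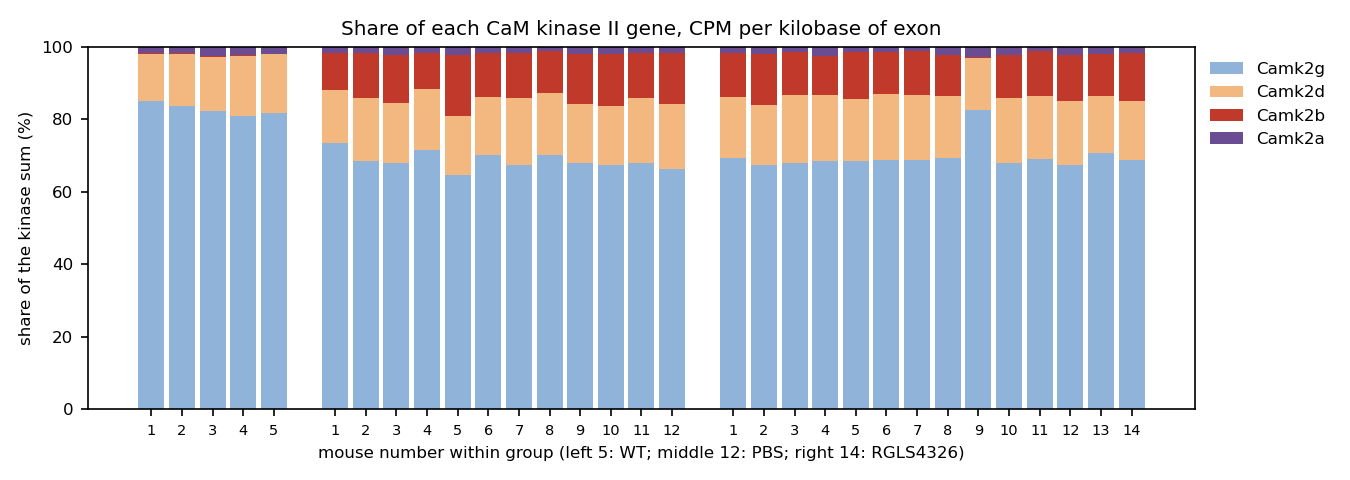
Share of the 4 kinase genes in their summed CPM per kilobase of exon, 1 stacked bar per mouse, in percent. Camk2b takes 9.82% to 16.95% of the bar in every PBS mouse, 11.03% to 14.26% in 13 treated mice and 0.322% in treated mouse 9.

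The comparison of treated with PBS mice asked whether the family differed with RGLS4326. It was not the difference that chose the genes, although it shares the 12 PBS mice with that one. No group here received a control oligonucleotide, so blocking miR-17 and receiving an oligonucleotide cannot be told apart. Camk2n1 rose, and no kinase gene passed the test. Camk2n1 was higher by 0.14 on the log2 scale (SE 0.04), with an adjusted p of 0.0220 in the quasi-likelihood test of edgeR, with the Benjamini-Hochberg method over all 15185 genes. Of the 14 treated mice, 11 lay above the PBS median and 9 above every PBS mouse. Without mouse 9 the difference was 0.13 (adjusted p = 0.0361 in edgeR), where 4.66% of all genes passed with treated mice higher. The count of members, 1 of 5, stands against a background in which 15.8% of all genes tested passed, 9.15% with treated mice higher and 6.66% with treated mice lower, so the count itself is close to that of any set of genes. The change is under a log2 fold change of 0.5, the size threshold used as an alternative.

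Library numbers restart within each group and so fall into 3 index series, though what these are is not stated. Within the 3 series the Camk2n1 difference was 0.02, 0.16 and 0.22, and none passed alone in edgeR (adjusted p = 1.0, 0.251 and 0.181). With the series as a covariate it was 0.14 (adjusted p = 0.0263 in edgeR). On total counts alone the difference was 0.03 (adjusted p = 0.510 in edgeR), while the median of all genes stood at -0.12. Measured from that median it was 0.15 on either scale.

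Camk2b read -0.22 in treated against PBS mice (SE 0.21, 95% interval -0.62 to 0.18), with an adjusted p of 0.438 in edgeR. Mouse 9 widened this interval. Without it the difference was -0.12 (SE 0.07, interval -0.26 to 0.02, adjusted p = 0.252 in edgeR), and 3 of the other 13 treated mice lay above the PBS median. Within the index series it was 0.03, -0.46 and -0.22, the second of which holds mouse 9.

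The remaining subunits differed by less than the spread between mice. Camk2d read -0.04 (interval -0.15 to 0.06, adjusted p = 0.555), Camk2g -0.06 (interval -0.15 to 0.03, adjusted p = 0.331) and Camk2a -0.04 (interval -0.29 to 0.21, adjusted p = 0.829), all in edgeR. On total counts alone Camk2g passed at -0.17 (adjusted p = 0.0223 in edgeR), but measured from the median of all genes it stood at -0.05 on either scale.

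**Figure D3:**
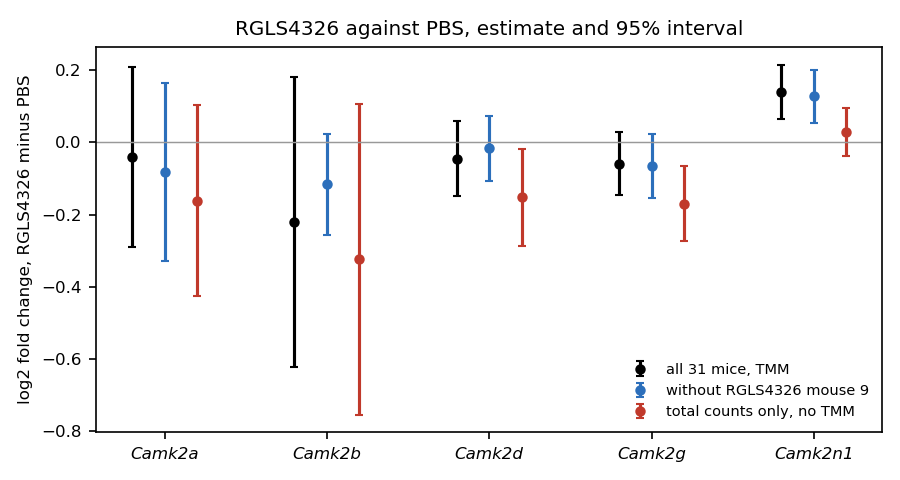
Log2 fold change of treated against PBS mice for the 5 genes, with 95% intervals, in 3 versions: all 31 mice with TMM, without RGLS4326-treated mouse 9, and on total counts alone. The Camk2n1 interval lies above 0 in both TMM versions, from 0.07 to 0.22 and from 0.05 to 0.20, and spans 0 on total counts.

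The share of Camk2b in the kinase sum was 11.4% ± 3.3 in the 14 treated mice and 12.2% ± 0.88 in 13 without mouse 9. The difference from PBS was -1.38 percentage points (p = 0.205, two-sided permutation test with 100000 resamples) and, without mouse 9, -0.533 (permutation p = 0.383). The log2 of the kinase sum was lower by 0.08 in treated mice (difference -0.08, permutation p = 0.0543), and by 0.07 without mouse 9 (difference -0.07, permutation p = 0.0927). Averaged within index series it was -0.07 and passed (permutation p = 0.0413). On total counts it was -0.19 (permutation p = 0.00372), where the median of all genes was at -0.12.

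Over the 12 PBS mice the coefficient of variation of Camk2b was 12.7%, where counting alone gives 6.81%, and over 13 treated mice it was 11.6%, where counting gives 7.39%. In PBS mice it was 6.79% for Camk2n1 (2.01% from counting), 8.52% for Camk2g (3.52%) and 6.37% for Camk2d (3.79%). For Camk2a it was 17.7%, where counting alone gives 20.3%.

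The levels were then set against Lcn2, a measure of kidney injury. Lcn2 encodes a secreted protein that injured tubule cells make, and it ranged from 205 to 1205 CPM among PBS mice. In the 12 PBS mice Camk2b was higher where Lcn2 was higher, with Pearson's r of 0.839 (permutation p = 0.00055, 0.0042 after adjustment over 10 relations) and Spearman's rho of 0.874 (permutation p = 0.0004, adjusted 0.0040). Without the 2 mice farthest from the median Lcn2 level r was 0.747 (permutation p = 0.0139), and leaving out any single mouse kept r between 0.781 and 0.863. With values centred within index series r was 0.847 (adjusted permutation p = 0.0011).

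In treated mice the value depended on mouse 9. Over all 14 mice r was 0.942 (adjusted permutation p = 0.0042), with mouse 9 apart from the others on both axes. In the other 13 mice r was 0.625 (permutation p = 0.0230, adjusted 0.115) and rho 0.687 (permutation p = 0.0119, adjusted 0.0595). Centred within index series, the 13 mice gave r of 0.595 (adjusted permutation p = 0.11) and rho of 0.797 (adjusted 0.0068). Whether the relation differs between PBS and treated mice was not tested.

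**Figure D4:**
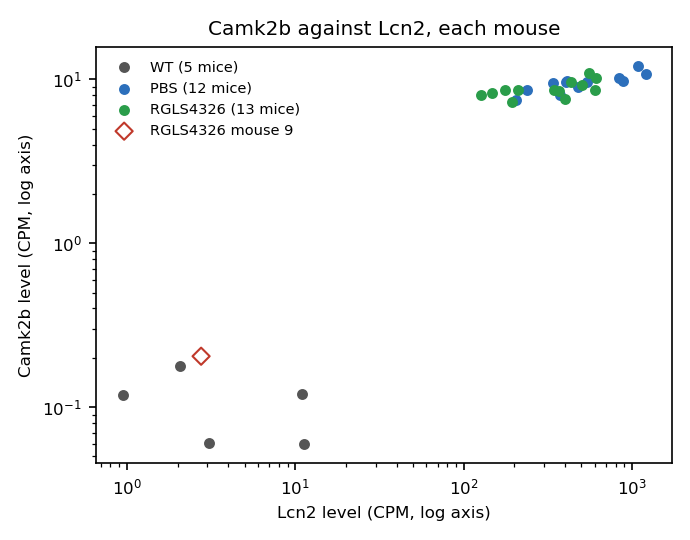
Camk2b against Lcn2 in each mouse, both in CPM on log axes. PBS and 13 treated mice lie at the upper right, whereas the 5 WT mice and RGLS4326-treated mouse 9 lie at the lower left. The relation was read within each group, with r of 0.839 in the 12 PBS mice and 0.625 in the 13 treated mice. The latter did not pass (adjusted permutation p = 0.115).

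For the other members the relations were weaker, or depended on mouse 9 or on the scaling. Camk2a correlated with Lcn2 in PBS mice at r = 0.573 (permutation p = 0.0477, adjusted 0.0954), and without the 2 farthest mice r was 0.422 (permutation p = 0.222). Centred within index series, Camk2a reached r = 0.731 in PBS mice (adjusted permutation p = 0.0158). In treated mice its r was negative and did not pass, at -0.470 (adjusted permutation p = 0.144) and -0.258 without mouse 9 (adjusted 0.412). Centred within index series, with mouse 9 included, the treated value was -0.554 (adjusted permutation p = 0.0577). In treated mice Camk2d had r = 0.711 (adjusted permutation p = 0.0373) and Camk2n1 r = -0.562 (adjusted permutation p = 0.0783). Without mouse 9 these were 0.305 and -0.337, with an adjusted permutation p of 0.412 for both. In PBS mice r was -0.302 for Camk2d and -0.259 for Camk2n1, with an adjusted permutation p of 0.42 and 0.458. In treated mice centred within index series, with mouse 9 included, Camk2n1 passed at r = -0.667 (adjusted permutation p = 0.0204). Without mouse 9 this centred value was -0.207 and did not pass (adjusted permutation p = 0.544). Camk2g had r = -0.478 in PBS mice (adjusted permutation p = 0.166) and r = 0.364 in the 13 treated mice (adjusted permutation p = 0.412).

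The genes beside Camk2b were read in the same way. Chromosome 11 carries Myl7 and Ykt6 on the one side of Camk2b and Nudcd3, Npc1l1 and Ddx56 on the other. Myl7, an atrial myosin light chain, had 0.0474 ± 0.077 CPM in wild-type (n = 5) and 0.506 ± 0.24 CPM in PBS mice (n = 12), a log2 fold change of 3.27 that rests on 4 counts in all wild-type mice and 5 to 24 counts per PBS mouse. In mouse 9 Myl7 was at 0.0511 CPM from 1 count, against 0.16 to 0.606 CPM in the other treated mice. Ykt6, a membrane fusion factor and the nearest gene on its side, had 114.5 ± 3.2 CPM in wild-type and 102.7 ± 4.1 CPM in PBS mice. Nudcd3, the nearest on the other side, had 90.8 ± 3.1 and 72.1 ± 3.3 CPM, and the RNA helicase Ddx56 had 39.9 ± 3.2 and 39.1 ± 2.7 CPM. Npc1l1, a sterol transporter, had at most 1.23 CPM in any mouse, which was mouse 9. In mouse 9 Nudcd3 was at 92.4 CPM, inside the wild-type range, and the other treated mice had 66.8 to 73.2 CPM.

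Over the 31 mice, the genes whose centred log2(CPM + 1) profile lay nearest that of Camk2b were sought among the 13783 other genes that averaged 1 CPM or more. The nearest was Rpl29, a ribosomal protein gene, with a root mean square difference of 0.162, followed by Ppfia4 at 0.215, Aldh1a2 at 0.285, C4b at 0.301 and Ifi202b at 0.320, where the median over all genes was 1.27. Rpl29 had 14.4 ± 0.48 CPM in wild-type, 167 ± 22 CPM in PBS and 158 ± 13 CPM in 13 treated mice, with 14.1 CPM in mouse 9. Ppfia4, a synaptic scaffold protein, had 0.476 ± 0.17 CPM in wild-type, 12.5 ± 2.7 CPM in PBS and 0.613 CPM in mouse 9. Aldh1a2, which makes retinoic acid, had 2.63 ± 0.98, 29.9 ± 6.2 and 2.56 CPM in the same order, and the complement gene C4b had 45.7 ± 14, 403 ± 110 and 38.5 CPM. Ifi202b, an interferon-inducible gene, had 1.74 ± 0.52, 15.6 ± 2.5 and 0.920 CPM. Rpl29, C4b and Ifi202b have close relatives or processed copies elsewhere in the genome. Only uniquely mapped reads were counted, and whether this bears on the levels of these genes was not tested. The likeness is a description over mice that share the group split.

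Around the family, 82 genes of calcium and calmodulin signalling in 5 lists were read, of which 73 had enough counts. Between PBS and wild-type mice 48 of the 73 passed in edgeR, 25 higher and 23 lower, or 65.8%, against 74.3% of all genes tested (37.7% higher, 36.6% lower). Between treated and PBS mice 16 passed, 6 higher and 10 lower, or 21.9%, against 15.8% of all genes. Without mouse 9 these were 3 higher and 8 lower, against 8.14% of all genes. Without TMM factors, on total counts, the split was 46 higher and 8 lower for PBS against wild type and 3 higher and 21 lower for treated against PBS, and over all genes the share of higher calls went from 50.7% to 80.0% and from 57.9% to 11.8%. The direction of small changes below therefore holds on the TMM scale.

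Calmodulin is the sensor that switches the kinase on. Of 7 calmodulin and buffer genes tested, Calm2 rose in PBS mice, from 155 ± 5.5 to 193 ± 16 CPM (log2 fold change 0.31, adjusted p = 1.71e-05 in edgeR). Calml4 fell, from 476 ± 22 to 338 ± 53 CPM (-0.49, adjusted p = 2.62e-05), but on total counts stood at -0.14 and did not pass (adjusted p = 0.0583 in edgeR). Calm3 fell by 0.10 (adjusted p = 0.0290 in edgeR), although on total counts Calm3 stood at 0.27. The Calm3 call was lost in 9 further alternatives, among them with only genes of 1 CPM or more, with 2 groups only, and without WT mouse 1, 2 or 5 (adjusted p = 0.0914 to 0.167 in edgeR). That is 42.9% of the list against 74.3% of all genes, and the list median was 0.05, against 0.01 over all genes. With treatment 0 of the 7 passed in edgeR or DESeq2, and 1 had an unadjusted p under 0.05.

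Of 17 other calmodulin-regulated kinases and inhibitors tested, 10 rose and 3 fell in PBS mice, with a list median of 0.43. That is 76.5% passing, close to the 74.3% of all genes. Camkk2, which phosphorylates and activates CaM kinases I and IV and AMPK, went from 25.8 ± 5.4 to 50.3 ± 7.7 CPM (log2 fold change 0.97, adjusted p = 1.17e-07 in edgeR), and Camk1g, a CaM kinase I gene, from 0.788 ± 0.30 to 2.48 ± 0.45 CPM (1.65, adjusted p = 6.41e-08). Mylk, the smooth muscle myosin light chain kinase, fell from 182 ± 19 to 122 ± 19 CPM (-0.58, adjusted p = 6.54e-06, and on total counts -0.21, adjusted p = 0.0532), and its cardiac relative Mylk3 from 1.47 ± 0.21 to 0.646 ± 0.27 CPM (-1.19, adjusted p = 4.11e-05). With treatment 3 fell and 0 rose, or 17.6% against 15.8% of all genes.

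The 3 that fell with treatment were Camk1g, to 1.54 ± 0.36 CPM (-0.68, adjusted p = 0.00400 in edgeR), Camkk2, to 39.6 ± 6.0 CPM (-0.35, adjusted p = 0.0158), and Pnck, another CaM kinase I gene, from 2.20 ± 0.65 to 1.48 ± 0.46 CPM (-0.57, adjusted p = 0.0299). All 3 also passed without mouse 9, with an adjusted p of 0.00504, 0.0254 and 0.0475 in edgeR.

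Of 12 phosphatase genes tested, whose products oppose such kinases or regulate those that do, 5 fell and 3 rose in PBS mice, or 66.7% against 74.3% of all genes, with a list median of -0.15. The calcineurin subunits Ppp3r1 and Ppp3ca fell, Ppp3r1 from 81.5 ± 3.0 to 58.0 ± 5.5 CPM (-0.49, adjusted p = 1.02e-07 in edgeR) and Ppp3ca from 52.3 ± 3.0 to 36.7 ± 3.7 CPM (-0.51, adjusted p = 1.02e-06). On total counts both passed at a smaller size, -0.13 and -0.14. Rcan2 and Rcan1, which bind and restrain calcineurin, rose, by 0.57 (adjusted p = 8.11e-05) and 0.55 (adjusted p = 0.000590).

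With treatment 4 phosphatase genes rose and 1 fell, or 41.7% against 15.8% of all genes, and without mouse 9 2 of 12 passed, against 8.14% of all genes. Ppm1e, a phosphatase that removes phosphate from CaM kinases, rose from 3.74 ± 0.55 to 4.78 ± 0.69 CPM (0.36, adjusted p = 0.0202 in edgeR), and the catalytic subunit Ppp1cb from 94.4 ± 14 to 110.6 ± 12 CPM (0.23, adjusted p = 0.0306). The calcineurin subunits Ppp3cb (0.15, adjusted p = 0.0354) and Ppp3r1 (0.14, adjusted p = 0.0466) rose, and Rcan2 fell by 0.24 (adjusted p = 0.0485). Without mouse 9 the last 3 did not pass in edgeR, with an adjusted p of 0.0569, 0.0694 and 0.0717, and on total counts Ppp1cb, Ppp3cb and Ppp3r1 did not, with 0.124, 0.533 and 0.553.

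Of 21 calcium channels, pumps and store sensors tested, 5 rose and 8 fell in PBS mice, or 61.9% against 74.3% of all genes, with a list median of -0.15. Orai2, a store-operated channel subunit, rose from 3.65 ± 0.60 to 12.4 ± 2.5 CPM (1.77, adjusted p = 2.28e-08 in edgeR) and the voltage-gated channel gene Cacna1d from 7.36 ± 1.2 to 16.1 ± 2.1 CPM (1.13, adjusted p = 8.16e-08). The release channel Ryr2 fell from 13.8 ± 2.0 to 3.52 ± 1.2 CPM (-1.98, adjusted p = 9.39e-08), and the cation channel Trpc1 from 42.0 ± 1.2 to 17.3 ± 5.5 CPM (-1.28, adjusted p = 4.12e-07).

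With treatment 2 of them rose and 3 fell, or 23.8% against 15.8% of all genes. Atp2a2, the pump that refills the endoplasmic reticulum, rose from 334 ± 48 to 405 ± 61 CPM (0.28, adjusted p = 0.0231 in edgeR), and Trpc1 to 23.4 ± 5.5 CPM (0.44, adjusted p = 0.0386). The store sensor Stim1 fell from 28.3 ± 2.7 to 23.9 ± 2.3 CPM (-0.24, adjusted p = 0.0113), Orai3 by 0.15 (adjusted p = 0.0286) and Orai2 by 0.40 (adjusted p = 0.0400). Without mouse 9 Trpc1 (adjusted p = 0.0660) and Orai2 (adjusted p = 0.0507) did not pass in edgeR.

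Among 16 calcium-responsive transcription factors and their partners, 6 rose and 5 fell in PBS mice, or 68.8% against 74.3% of all genes, with a list median of 0.13. Hdac7, a histone deacetylase that CaM kinases drive from the nucleus, rose from 40.2 ± 1.6 to 87.8 ± 11 CPM (1.13, adjusted p = 1.26e-09 in edgeR), and Nfatc4, a calcineurin target, from 3.71 ± 0.67 to 13.3 ± 3.8 CPM (1.84, adjusted p = 2.16e-07). Nfatc3 fell by 0.28 (adjusted p = 9.71e-05) and Mef2a by 0.52 (adjusted p = 0.000240), but on total counts Nfatc3 was at 0.08 and Mef2a at -0.16, and neither passed. With treatment Hdac7 fell by 0.28 (adjusted p = 0.0147), Nfatc4 by 0.54 (adjusted p = 0.0284) and Crtc1, a coactivator of Creb1, by 0.12 (adjusted p = 0.0201 in edgeR), and all 3 also passed without mouse 9. Of the 16, 0 rose with treatment, so that 18.8% passed against 15.8% of all genes, and across the 5 lists the medians with treatment lay between -0.06 and 0.08, against -0.0043 over all genes.

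**Figure D5:**
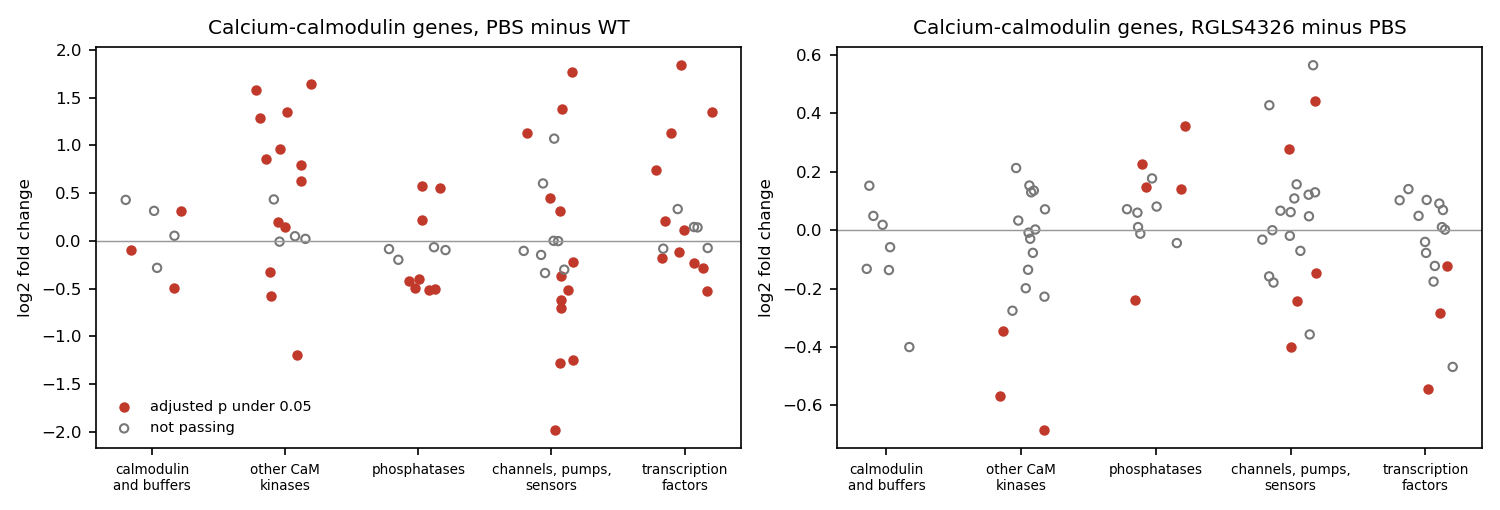
Log2 fold change of 73 calcium and calmodulin signalling genes in 5 lists, PBS minus WT on the left and RGLS4326 minus PBS on the right, on different axes. Filled red points passed an adjusted p under 0.05 in edgeR, 48 on the left and 16 on the right, and open points did not.

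Markers of other cell types were read beside these results. Because Camk2b is best known from neurons, neuronal genes were read first. Of 11 neuron markers 8 were at or above 1 count in every mouse, among them Syp, Map2 and Stmn2, with means of 7.40, 4.82 and 1.29 CPM in PBS mice. Eno2 averaged 2.15 CPM in wild-type and 10.8 CPM in PBS mice and Uchl1 1.30 and 3.69 CPM, whereas Nefl averaged 0.751 and 0.0552 CPM and Syt1 1.58 and 0.921 CPM. Snap25, a defining marker, was at 0 in 30 of the 31 mice. The summed list ran from 18.8 to 24.3 CPM in wild-type and from 24.9 to 37.65 CPM in PBS mice. Of 8 tested, 2 rose and 1 fell in PBS mice, where 74.3% of all genes tested passed. With treatment 0 of the 8 passed, where 15.8% of all genes did. Skeletal muscle markers summed to 1.45 to 3.02 CPM in wild-type and 2.25 to 4.27 CPM in PBS mice. Of the 9, Myh4 was at 0 in all 31 mice and Myh1 and Myh2 in 29, whereas Actn3, Mylpf and Tnni2 had counts in every mouse, with Tnni2 at a mean of 0.143 CPM in wild-type and 0.896 CPM in PBS mice.

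Against the 37.7% of all genes that were higher and the 36.6% that were lower in PBS mice, 6 of 6 leukocyte markers and 4 of 5 fibroblast markers rose. Of 6 smooth muscle markers 5 rose and 1 fell, with Myh11 at 39.8 CPM in wild-type and 22.6 CPM in PBS mice. Of 9 tubule markers 6 fell and 2 rose, with Aqp2 at 231 CPM in wild-type and 1140 CPM in PBS mice. The smooth muscle sum went from 125.8 to 161.2 CPM in wild-type to 161.1 to 466.5 CPM in PBS mice and the leukocyte sum from 141.4 to 145.6 CPM to 177.3 to 258.2 CPM. In mouse 9 the smooth muscle sum was 202.3 CPM, inside the PBS range, and the leukocyte sum 131.9 CPM, below the wild-type range. The fibroblast sum went from 115 to 165 CPM in wild-type to 343 to 722 CPM in PBS mice, and in mouse 9 it was 174 CPM. The tubule sum went from 18560 to 21240 CPM in wild-type to 9291 to 14680 CPM in PBS mice, and in mouse 9 it was 18720 CPM. The part of these shifts in the levels of the family was not tested. With treatment 1 of 9 tubule markers rose and 1 fell, so that 2 of 37 markers passed in edgeR, where 15.8% of all genes did. Of the 9 tubule markers 6 had an unadjusted p under 0.05 in edgeR, as did 5595 of the 15185 genes tested. Of the 28 markers outside the tubule list 0 passed, and 5 had an unadjusted p under 0.05.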

How the data were processed

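Kidney polyA RNA of 31 mice was sequenced from TruSeq stranded libraries as paired 75-base reads. The authors deposited raw counts per gene and mouse, without normalization. Per the labels and the study's methods they used FastQC 0.11.2, Trim Galore, STAR on GRCm38 (mm10), SAMtools 1.1, HTSeq 0.6.1 and Picard 1.119. The annotation release and the strand setting of the counting are not given in the sources used here. HTSeq's summary classes were left out of totals and tests. Reads on no feature came to 8.39% to 10.1% of all classes and not unique reads to 17.8% to 21.2%.

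The members and gene lists were chosen with earlier results of these data known. Genes passing filterByExpr with default settings (15185) were fitted with edgeR 4.0.16 in R 4.3.3 (quasi-likelihood, TMM, 1 coefficient per group, all 31 mice) and adjusted by Benjamini-Hochberg. A gene passed at an adjusted p under 0.05. SEs were derived from the fold change and its F statistic, and intervals are approximate. Single values per mouse were compared by two-sided permutation with 100000 resamples (20000 within index series). Named genes were the members, in each list the 2 strongest risers and fallers by p between PBS and wild type and every gene passing with treatment, the 5 genes most like Camk2b, neighbours of Camk2b and Lcn2. Some items named by this rule are not reported here. The fit was tested on simulated counts. Replicate numbers come from the labels. Labels name separate samples, each taken as a mouse. The closest pair of libraries, WT 3 and 4, still differed beyond sampling noise (chi-square 2.56 per gene). Alternatives covered the filter, normalization, DESeq2 1.42.0, a size threshold of 0.5, the groups fitted, index series, replicate block, gene length, pseudocount and leaving out each mouse. Python 3.11.15, numpy 2.4.6, pandas 2.3.3, scipy 1.17.1 and matplotlib 3.10.9 served for the rest.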

Additional observations from a re-analysis of the deposited data

How the results depend on the processing

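Between treated and PBS mice, Camk2n1 kept its direction in all alternatives and passed when any single mouse was left out (log2 fold change 0.13 to 0.15, adjusted p = 0.0107 to 0.0478 in edgeR). It did not pass on total counts (0.029), within index series 1, 2 or 3 (0.017, 0.16 and 0.22) or with the size threshold (0.14). Camk2g passed on total counts only (-0.17). The members that turned direction with treatment had not passed. Camk2a stood at 0.064 within series 2 and ranged from -0.092 to 0.0054 with single mice left out, Camk2b at 0.026 and Camk2d at 0.017 within series 1, and Camk2g at 0.015 within series 2. PBS minus wild type for Camk2a was 0.47, -0.23 and 0.30 within series 1, 2 and 3. Within series 3 the lone wild-type mouse was assumed to vary like the other groups. On total counts Calm3 stood at 0.27 and Nfatc3 at 0.085 between PBS and wild-type mice, and Calml4 (-0.14), Mylk (-0.21) and Mef2a (-0.16) no longer passed. The log2 kinase sum passed within index series (-0.074, p = 0.0413, permutation test) and on total counts (-0.189), and ranged from -0.0913 to -0.0652 with single mice left out (permutation p = 0.0254 to 0.103), passing without PBS mouse 5, 8 or 12 or treated mouse 1, 2, 5, 6 or 7. The causes were not tested.

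Against Lcn2, without mouse 9 the r in treated mice was 0.625 for Camk2b, 0.305 for Camk2d and 0.364 for Camk2g, and the first 2 no longer passed. Centred within index series r was 0.731 for Camk2a in PBS mice, and in treated mice -0.667 for Camk2n1 and 0.0072 for Camk2g, of which the first 2 passed. Without mouse 9 the centred r of Camk2n1 was -0.207 and did not pass. On total counts r in PBS mice was 0.701 for Camk2a, which passed, 0.364 for Camk2d, 0.118 for Camk2g and 0.477 for Camk2n1. In treated mice, mouse 9 included, it was 0.831 for Camk2d, which passed (adjusted permutation p = 0.00427), 0.456 for Camk2g and 0.136 for Camk2n1. Spearman's rho of Camk2g in these treated mice was 0.767 and passed (adjusted permutation p = 0.00406).

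The count of signalling genes passing with treatment, 16, was 0 within each index series, 3 with the size threshold, and 6 to 21 with single mice left out. It moved most without PBS mice 10 (6), 3 (7), 5 (7), 9 (9) and 2 (10) and treated mice 8 (8), 6 (10) and 10 (10). Between PBS and wild-type mice it was 31 within series 1, 27 within series 3, 28 with the size threshold and 47 to 50 with single mice left out. Over all genes, calls with treatment went from 2402 to 4683 on total counts and 1480 with the 2 groups fitted alone, and ranged from 618 without PBS mouse 10 to 3999 without treated mouse 2. They also moved by over 1.5 times without PBS mice 5 (789), 9 (842), 3 (921), 2 (1133) and 4 (3864) and treated mice 8 (1026), 13 (1185), 9 (1234), 6 (1247), 10 (1251) and 3 (1450). Within series 0 genes passed in edgeR, where 280, 2981 and 3045 had an unadjusted p under 0.05. Depth limits Camk2b in wild-type mice (1 to 3 counts) and Camk2a (12 to 33 counts) most. Of 39 alternatives beside the index series, Ppp3r1 and Rcan2 passed with treatment in 18, Orai2 in 24, Trpc1 in 26, Ppp3cb in 27, Ppp1cb in 30 and the other named genes in 32 or more.

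Replicate numbers did not pair the mice. Over 12 numbers shared by PBS and treated mice the mean correlation of deviations was -0.0849 (range -0.47 to 0.506), and 2 of 12 mice correlated best with their own number. With the replicate number as a block, 303 genes passed with treatment and 1 signalling gene, Camk2n1 stood at 0.12 (adjusted p = 0.0846 in edgeR), and the log2 kinase sum at -0.0639 (p = 0.0410, permutation test).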
